A study of Mus musculus with 24 samples.

Results

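The mGluR6 signalling complex of retinal ON bipolar cells was taken as 10 genes, Grm6, Trpm1, Nyx, Gpr179, Lrit3, Rgs7, Rgs11, Gnao1, Pcp2 and Prkca, and consisted of the entries of the deposited table with these gene symbols. These are 10 of the 28,802 genes in the table. ON bipolar cells receive glutamate from photoreceptors through the metabotropic receptor mGluR6, which acts through the G protein Go to keep the cation channel TRPM1 closed in darkness, and light opens the channel as glutamate release falls. GPR179 holds the RGS7 and RGS11 proteins, which speed the inactivation of Go, at the tips of the dendrites, and the leucine-rich repeat proteins nyctalopin and LRIT3 are needed for TRPM1 to reach its place there. Loss of mGluR6, TRPM1, nyctalopin, GPR179 or LRIT3 causes congenital stationary night blindness in people and removes the ON bipolar response in mice.

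The study examined gene expression in the retina of mouse strains that differ in contrast perception, refraction and susceptibility to myopia. Total RNA depleted of ribosomal RNA was sequenced from 24 wild type mice at postnatal day 28, with 3 libraries for each of 8 inbred strains, which are the founders of the Collaborative Cross. The strains were 129S1/Svlmj, A/J, C57BL/6J, NOD/ShiLtJ and NZO/HlLtJ, and the wild-derived CAST/EiJ, PWK/PhJ and WSB/EiJ. Because each strain is inbred, 3 mice sample 1 genetic background, and the sex of the mice is not given in the sources used here. Values are cpm, read counts scaled to the total of the library, as deposited by the authors, and the sequencing depth recovered from them was 57,606,000 to 78,149,000 reads per library. The genes of the table summed to 332,472 to 366,570 cpm in a library, so most of the total used for scaling lies outside the genes listed. At this depth the least abundant member, Nyx, had between 278 and 860 reads in a library, with a counting error of at most 6.00%, and Trpm1 had between 7413 and 16929. In whole retina, fewer cells of a type and less RNA per cell cannot be told apart. Grm6, Trpm1, Nyx and Gpr179 are used mainly by ON bipolar cells, whereas LRIT3 is also made by photoreceptors and acts across the synapse, and Gnao1, Rgs7 and Prkca are also used by other retinal cells.

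All 10 genes had a mean of at least 0.5 cpm over the libraries, as did 16,400 of the 28,802 genes, which were tested. Each of the 10 differed between the 8 strains by the moderated F-test of limma at a Storey q-value under 0.01. This count carries little weight on its own, because 97.2% of the genes tested passed the same limit, and 70.6% passed a Benjamini-Hochberg adjusted p of 0.01, by which the 10 were also called. The size of the differences set the members apart from each other. On the log2(cpm + 1) scale, the range of the 8 strain means was 1.70 for Prkca, 1.29 for Nyx, 1.12 for Pcp2 and 1.11 for Gpr179. It was 0.88 for Trpm1, 0.82 for Grm6, 0.65 for Lrit3, 0.60 for Gnao1, 0.45 for Rgs11 and 0.36 for Rgs7. The median range over the 10 members was 0.85, beside a median of 0.43 over all genes tested, and 4 of the members and 11.6% of the genes tested had a range of at least 1. Adding 1 cpm narrows the range of genes of low level more than that of the members, whose means were 9.20 to 189 cpm. No comparison with genes of like level was made. The share of variance that lay between strains was 99.4% for Prkca and 97.0% for Trpm1, but 57.8% for Rgs11, beside a median of 75.5% over all genes tested. Per kilobase of annotated exon, the mean levels were highest for Prkca (14.4 cpm per kb), Trpm1 (12.8) and Pcp2 (12.7), and lowest for Rgs7 (2.51) and Nyx (1.78). Grm6, at 4.54 cpm per kb, lay below Gpr179 (7.59) and close to Rgs11 (4.83) on this length-adjusted scale.

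**Figure D1:**
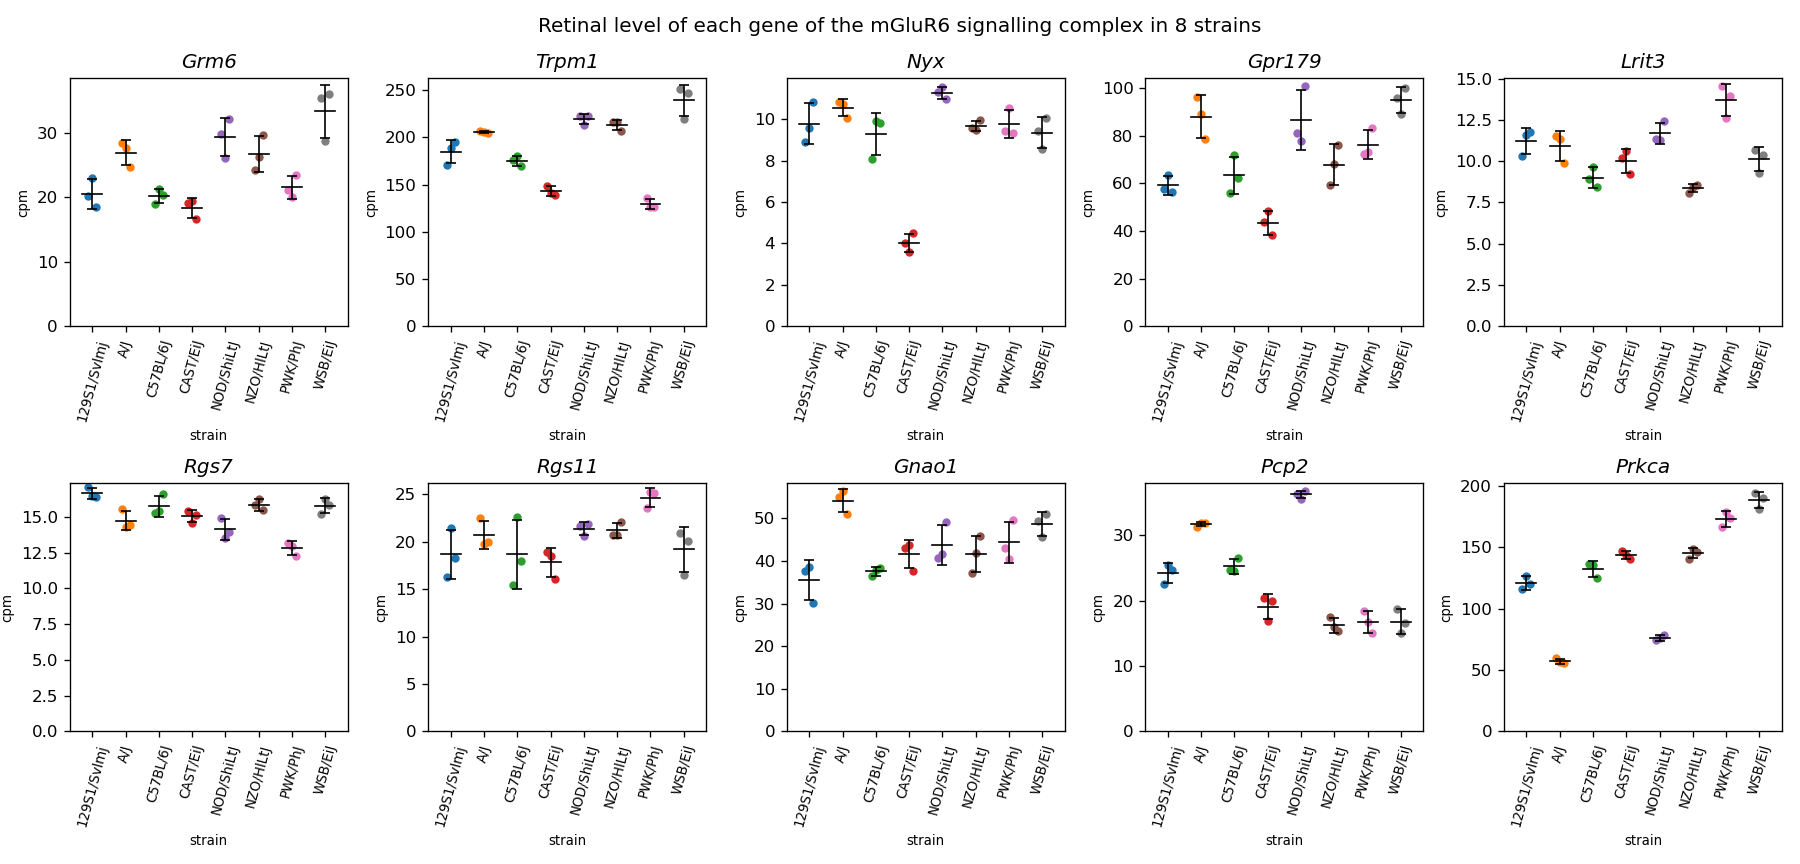
Level of each of the 10 genes in cpm (vertical axis, from 0) in the 8 strains (horizontal axis). Points are libraries, 3 per strain, wide lines are strain means and bars are 1 SD; Prkca was lowest in A/J (57.3 cpm) and NOD/ShiLtJ (76.2 cpm), and Nyx in CAST/EiJ (4.02 cpm).

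Each strain was then set against the mean of the other 7 in the same fit, which asks in which backgrounds the pathway is high or low. These 8 comparisons share all libraries and are not independent. In CAST/EiJ, 1 of the 10 members was higher and 5 lower, where 20.3% and 29.1% of all genes tested were. In PWK/PhJ, 3 of the 10 members were higher and 3 lower, where 26.6% and 22.8% of all genes tested were. In WSB/EiJ, 5 of the 10 members were higher and 1 lower, where 12.7% and 21.9% of all genes tested were. CAST/EiJ was thus the strain with the most lower calls among the members, led by Nyx and Gpr179, and WSB/EiJ was among those with the most higher calls, led by Prkca, Grm6 and Gpr179. Reads of all 8 strains were mapped to the reference assembly GRCm38, and the part of mapping in low values, such as those of CAST/EiJ, was not tested. For A/J, 5 of the 10 members were higher and 1 lower, where 15.1% and 12.6% of all genes tested were. For NOD/ShiLtJ, 5 of the 10 members were higher and 1 lower, where 14.9% and 9.14% of all genes tested were. In both A/J and NOD/ShiLtJ the single lower gene was Prkca. In NZO/HlLtJ, 2 of the 10 members were higher and 2 lower, where 12.7% and 13.2% of all genes tested were. In C57BL/6J, 2 of the 10 members were higher and 2 lower, where 12.5% and 10% of all genes tested were. In 129S1/Svlmj, 1 of the 10 members was higher and 3 lower, where 14.5% and 13.0% of all genes tested were. Of the 80 combinations of member and strain, 42 were called, 24 of them higher and 18 lower. This total is to be read beside the shares of all genes tested, given above for each strain. Of the 42 calls, 29 were kept in each of the 24 fits that left out 1 library.

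**Figure D2:**
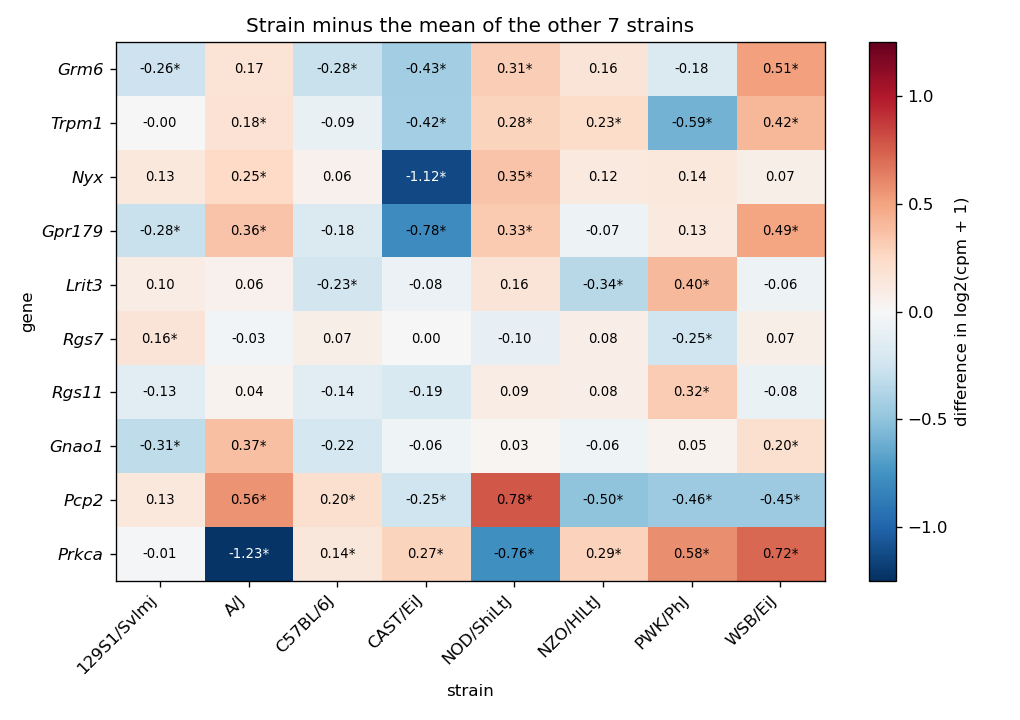
Difference of each strain from the mean of the other 7 strains in log2(cpm + 1), by gene (downwards) and strain (across), with blue for lower and red for higher; an asterisk marks a q-value under 0.01. The lowest values are those of Prkca in A/J (-1.23) and Nyx in CAST/EiJ (-1.12), and the highest are those of Pcp2 in NOD/ShiLtJ (0.78) and Prkca in WSB/EiJ (0.72).

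Grm6, which encodes the receptor (chr11:50850685-50866209, plus strand, GRCm38), split the strains into 4 lower and 4 higher ones. The libraries had 19.0, 19.5 and 16.6 cpm in CAST/EiJ, 19.0, 21.2 and 20.3 cpm in C57BL/6J, 20.2, 23.0 and 18.4 cpm in 129S1/Svlmj and 21.05, 20.1 and 23.5 cpm in PWK/PhJ. The other strains gave 24.3, 26.2 and 29.6 cpm in NZO/HlLtJ, 28.3, 27.7 and 24.7 cpm in A/J, 29.8, 26.1 and 32.1 cpm in NOD/ShiLtJ and 35.4, 28.6 and 35.9 cpm in WSB/EiJ. Every library of the latter 4 strains lay above every library of the former 4, the lowest at 1.03 times the highest below it, while neighbouring strains within each group of 4 overlapped. The mean in WSB/EiJ, 33.3 ± 4.06 cpm (SD, n = 3), was 1.81 times that in CAST/EiJ, 18.4 ± 1.55 cpm. Against the other 7 strains Grm6 was higher in WSB/EiJ (log2 difference 0.51 ± 0.07 (SE), q = 2.80e-06) and lower in CAST/EiJ (log2 difference -0.43 ± 0.07 (SE), q = 9.81e-06), with 3 of 3 libraries on the same side of the mean of the other strains. It was also called higher in NOD/ShiLtJ (0.31, q = 0.00110) and lower in C57BL/6J (-0.28, q = 0.00267) and 129S1/Svlmj (-0.26, q = 0.00368). Each of these 3 calls was lost in fits without 1 library: the difference was 0.29 (q = 0.0120) without replicate 1 and 0.24 (q = 0.0253) without replicate 3 of NOD/ShiLtJ, -0.24 (q = 0.0273) and -0.29 (q = 0.0134) without replicates 1 and 3 of C57BL/6J, and -0.25 (q = 0.0196) and -0.18 (q = 0.0592) without replicates 1 and 3 of 129S1/Svlmj. In the fit without CAST/EiJ and PWK/PhJ the call in NOD/ShiLtJ was also lost, at 0.22 (q = 0.0248), and with the summed pigment cell markers as a covariate that in 129S1/Svlmj was, at -0.21 (q = 0.0618). The genes most like Grm6 over the 24 libraries were Tmem201 (Pearson r = 0.89) and Aff1 (r = 0.88).

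Trpm1, the channel (chr7:64153835-64269776, plus strand), had 2 low strains. It measured 136, 126 and 126 cpm in PWK/PhJ, 149, 141 and 139 cpm in CAST/EiJ, 176, 180 and 169 cpm in C57BL/6J and 171, 189 and 195 cpm in 129S1/Svlmj. Values were 207, 206 and 205 cpm in A/J, 217, 216 and 207 cpm in NZO/HlLtJ, 222, 213 and 223 cpm in NOD/ShiLtJ and 251, 220 and 247 cpm in WSB/EiJ. PWK/PhJ lay below CAST/EiJ, and CAST/EiJ below the other 6 strains, without overlap; from A/J upward, neighbouring strains overlapped. The highest mean, 239 ± 16.8 cpm (SD, n = 3) in WSB/EiJ, was 1.85 times the lowest, 129 ± 5.66 cpm in PWK/PhJ. The log2 difference from the other strains was -0.59 ± 0.04 (SE), q = 4.26e-12 in PWK/PhJ, -0.42 ± 0.04 (SE), q = 1.14e-09 in CAST/EiJ and 0.42 ± 0.04 (SE), q = 4.11e-09 in WSB/EiJ. Smaller higher calls were made in NOD/ShiLtJ (0.28, q = 2.68e-06), NZO/HlLtJ (0.23, q = 2.86e-05) and A/J (0.18, q = 4.77e-04), and each was lost when CAST/EiJ and PWK/PhJ were left out of the fit (0.12 (q = 0.0246), 0.07 (q = 0.125) and 0.01 (q = 0.430)). That comparison no longer holds the low strains among those each strain is set against.

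The gene most like Trpm1 was Car8, a carbonic anhydrase-related gene used as a marker of rod bipolar cells, with r = 0.97 over the 24 libraries and r = 0.98 over the 8 strain means. Car8 rose from 14.5 ± 0.752 cpm (SD, n = 3) in PWK/PhJ and 19.2 ± 1.06 cpm in CAST/EiJ to 34.1 ± 1.15 cpm in NOD/ShiLtJ and 36.5 ± 0.854 cpm in WSB/EiJ. Within strains, after the strain means were removed, r was 0.19 over the 24 libraries. Next was the pseudogene Gm47647 (r = 0.96), with 2.80 cpm in PWK/PhJ and 10.5 cpm in NZO/HlLtJ. The genes beside Trpm1 on its distal side also had low values in PWK/PhJ, a pair singled out after their values were seen and given no test. Mtmr10, 17.9 kb away (chr7:64287653-64340807), had 10.8, 9.79 and 9.65 cpm in PWK/PhJ and 35.0, 26.2 and 31.0 cpm in WSB/EiJ. Gm44765, which lies between the 2 genes, had means of 1.28 cpm in PWK/PhJ and 5.58 cpm in WSB/EiJ. Over the 8 strain means, r with Trpm1 was 0.85 for Mtmr10 and 0.83 for Gm44765, against -0.01 for Klf13 and -0.10 for Otud7a on the proximal side.

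Melanocytes and pigment epithelium also use Trpm1, and pigment cell markers differed between the strains. The most abundant of the 10 pigment cell markers was Ttr, none was at or below 3 reads in all 24 libraries, and 16 single values were, including Best1 at the lowest value of the table in all libraries of A/J and WSB/EiJ. The markers summed to 15.1, 20.7 and 11.3 in PWK/PhJ, 14.5, 11.7 and 13.4 in CAST/EiJ and 17.2, 20.1 and 13.2 in NZO/HlLtJ, in cpm per library. Summed levels were 37.6, 19.9 and 35.1 in C57BL/6J, 59.8, 30.4 and 26.8 in NOD/ShiLtJ, 42.0, 53.1 and 42.6 in 129S1/Svlmj, 35.1, 55.0 and 54.7 in A/J and 71.9, 44.7 and 49.7 in WSB/EiJ. Of the 8 markers that passed the filter, 7 were lower in CAST/EiJ, 6 in PWK/PhJ and 2 in NZO/HlLtJ, and 5 were higher in WSB/EiJ, 4 in A/J, 3 in 129S1/Svlmj and 1 in NOD/ShiLtJ. The shares of all genes tested are those given above for each strain. With the summed pigment cell level as a covariate, the log2 difference of Trpm1 was -0.56 (q = 2.24e-08) in PWK/PhJ, -0.39 (q = 2.02e-05) in CAST/EiJ and 0.39 (q = 1.09e-05) in WSB/EiJ, and the call in A/J was lost at 0.15 (q = 0.0146). The part of pigment cells in the Trpm1 values was not tested further.

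Gpr179, the orphan receptor that anchors the RGS proteins (chr11:97332109-97352078, minus strand), was lowest in CAST/EiJ. Levels were 43.6, 48.4 and 38.4 cpm in CAST/EiJ, 57.7, 63.6 and 56.1 cpm in 129S1/Svlmj, 56.0, 71.7 and 62.3 cpm in C57BL/6J and 59.1, 68.1 and 76.2 cpm in NZO/HlLtJ. They were 72.1, 73.1 and 83.1 cpm in PWK/PhJ, 81.1, 77.7 and 101 cpm in NOD/ShiLtJ, 96.4, 89.1 and 78.4 cpm in A/J and 95.7, 89.0 and 100 cpm in WSB/EiJ. The 3 CAST/EiJ libraries lay below all others, and each of the other strains overlapped its neighbour in the order of means. The WSB/EiJ mean, 94.9 ± 5.54 cpm (SD, n = 3), was 2.18 times the CAST/EiJ mean, 43.5 ± 4.99 cpm. Differences from the other strains were -0.78 ± 0.08 (SE), q = 9.34e-09 in CAST/EiJ and 0.49 ± 0.08 (SE), q = 1.81e-05 in WSB/EiJ, on the log2 scale. Gpr179 was also called higher in A/J (0.36, q = 6.07e-04) and NOD/ShiLtJ (0.33, q = 0.00156) and lower in 129S1/Svlmj (-0.28, q = 0.00414). The call in A/J became 0.29 (q = 0.0128) without replicate 1 of A/J, that in NOD/ShiLtJ 0.22 (q = 0.0504) without replicate 3 of NOD/ShiLtJ, and that in 129S1/Svlmj -0.26 (q = 0.0242) and -0.25 (q = 0.0371) without replicates 1 and 3 of 129S1/Svlmj. With CAST/EiJ and PWK/PhJ out of the fit, the calls in A/J and NOD/ShiLtJ were lost as well, at 0.26 (q = 0.0130) and 0.23 (q = 0.0283), and with the pigment cell covariate the call in 129S1/Svlmj was, at -0.13 (q = 0.189); the latter also had a Benjamini-Hochberg adjusted p of 0.0108. Xylt1 (r = 0.94) and Fam53c (r = 0.92) had the patterns most like it.

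Nyx, the X-linked gene for nyctalopin (chrX:13466110-13489314, plus strand), had 1 strain far below the rest. CAST/EiJ libraries had 4.02, 3.57 and 4.48 cpm. The other strains had 8.08, 9.90 and 9.83 cpm in C57BL/6J, 9.44, 8.55 and 10.03 cpm in WSB/EiJ, 9.59, 9.46 and 9.94 cpm in NZO/HlLtJ and 9.42, 10.5 and 9.34 cpm in PWK/PhJ. Above these came 8.89, 9.57 and 10.8 cpm in 129S1/Svlmj, 10.8, 10.7 and 10.1 cpm in A/J and 11.3, 11.6 and 10.96 cpm in NOD/ShiLtJ. The lowest library outside CAST/EiJ was 1.81 times the highest CAST/EiJ library; from C57BL/6J to A/J all neighbours overlapped, and NOD/ShiLtJ lay above all others. The CAST/EiJ mean was 4.02 ± 0.454 cpm (SD, n = 3) beside means of 9.27 to 11.3 cpm elsewhere, a log2 difference of -1.12 ± 0.06 (SE), q = 7.87e-14. With 1 library left out, the difference ranged from -1.19 to -1.06 over the 24 fits, and it was -1.13 (q = 3.74e-09) with the pigment cell covariate. Higher calls in NOD/ShiLtJ (0.35, q = 3.43e-05) and A/J (0.25, q = 9.38e-04) were smaller, and without CAST/EiJ and PWK/PhJ in the fit they were 0.20 (q = 0.0108) and 0.09 (q = 0.135); the call in A/J was also lost without replicate 2 of A/J, at 0.24 (q = 0.0107), and with the pigment cell covariate, at 0.26 (q = 0.0104). Of the 4 nearest tested genes, described after their values were seen, Ddx3x had 115, 110 and 174 cpm and Cask 36.5, 35.2 and 33.6 cpm in CAST/EiJ, and both overlapped the libraries of other strains. Llph-ps2 had 0.422, 0.588 and 0.749 cpm in CAST/EiJ, overlapping only PWK/PhJ, and Gm14505 was at the lowest value of the table in all libraries of CAST/EiJ and PWK/PhJ. Over the 8 strain means, r with Nyx was -0.35 for Ddx3x, -0.43 for Cask, 0.61 for Llph-ps2 and 0.58 for Gm14505. The genes most like Nyx were the lncRNA Gm47543 (r = 0.96) and the pseudogene Gm12918 (r = 0.95), with CAST/EiJ means of 0.119 and 0.0220 cpm.

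Lrit3, the other leucine-rich repeat gene of the complex (chr3:129787881-129804031, minus strand), did not share the CAST/EiJ pattern, with a log2 difference there of -0.08 (q = 0.0698). It was high in PWK/PhJ, with 14.5, 12.6 and 14.0 cpm, and low in NZO/HlLtJ, with 8.08, 8.42 and 8.55 cpm. PWK/PhJ libraries lay just above all others, while every other pair of neighbours in the order overlapped. Log2 differences were 0.40 ± 0.05 (SE), q = 5.17e-07 in PWK/PhJ and -0.34 ± 0.05 (SE), q = 1.55e-05 in NZO/HlLtJ; a lower call in C57BL/6J (-0.23, q = 0.00105) was -0.19 (q = 0.0205) without replicate 3 of that strain and -0.19 (q = 0.0110) without CAST/EiJ and PWK/PhJ. Iqgap1 (r = 0.89) and Dlg5 (r = 0.87) were most like it, and Iqgap1 ranged from 16.4 cpm in NZO/HlLtJ to 72.8 cpm in PWK/PhJ.

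The G protein and its regulators varied less. Gnao1, the alpha subunit of Go (chr8:93809966-93969389, plus strand), was highest in A/J with 55.0, 56.4 and 51.1 cpm and lowest in 129S1/Svlmj with 37.7, 38.7 and 30.2 cpm. WSB/EiJ came next, with 49.3, 45.7 and 51.1 cpm, so that its highest library and the lowest of A/J were equal to 3 digits, and the strain means ran from 35.6 to 54.2 cpm. The log2 difference was 0.37 ± 0.07 (SE), q = 1.001e-04 in A/J and -0.31 ± 0.07 (SE), q = 5.33e-04 in 129S1/Svlmj, the latter -0.20 (q = 0.0237) without replicate 3 of 129S1/Svlmj and -0.23 (q = 0.0345) with the pigment cell covariate. In WSB/EiJ it was 0.20 ± 0.07 (SE), q = 0.00961, a call that was lost in 17 of the 24 fits without 1 library, with q up to 0.0630 without replicate 3 of WSB/EiJ, and also in the fit without CAST/EiJ and PWK/PhJ, at 0.21 (q = 0.0101). That call was lost as well with Benjamini-Hochberg adjusted p (0.0272), with no filter (q = 0.0184) and without the trend (q = 0.0121), whereas with the pigment cell covariate the difference was 0.32 (q = 0.00778). Stac2 (r = 0.93) and Castor2 (r = 0.92) had the most similar values.

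The 2 RGS genes moved in opposite directions in PWK/PhJ. Rgs7 (chr1:175059087-175492501, minus strand) was lowest there, with 13.2, 13.0 and 12.2 cpm, and highest in 129S1/Svlmj, with 17.1, 16.5 and 16.4 cpm. Rgs11 (chr17:26202951-26211325, plus strand) was highest there, with 23.6, 25.3 and 25.2 cpm, and lowest in CAST/EiJ, with 18.9, 18.5 and 16.1 cpm. For both genes the PWK/PhJ libraries did not overlap those of any other strain, and the other neighbouring strains overlapped except NZO/HlLtJ and 129S1/Svlmj for Rgs7. Log2 differences in PWK/PhJ were -0.25 ± 0.04 (SE), q = 1.72e-06 for Rgs7 and 0.32 ± 0.08 (SE), q = 5.07e-04 for Rgs11. No other strain was called for Rgs11, and Rgs7 was called higher in 129S1/Svlmj (0.16, q = 8.14e-04), which without CAST/EiJ and PWK/PhJ was 0.12 (q = 0.0142) and with the pigment cell covariate 0.13 (q = 0.0256). Over the 8 strain means r between the genes was -0.79, and within strains it was -0.13 over the 24 libraries. With the pigment cell covariate the Rgs11 call in PWK/PhJ was 0.25 (q = 0.0363). Rab27b (r = 0.86) and Pgm2l1 (r = 0.86) were most like Rgs7, and Rbm19 (r = 0.89) and Zfp316 (r = 0.88) most like Rgs11. 5730408A14Rik overlaps Rgs7 on the same strand with 5.29 cpm, 35.0% of the Rgs7 value, so the division of reads between them is uncertain.

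The wider pathway was followed with 6 partners of the G protein and the RGS proteins and 5 proteins of the synaptic cleft, all of which passed the filter. The G protein group was Gnb3 and Gng13, the beta and gamma subunits of ON bipolar cells, Gnb5, the obligate partner of the RGS7 family, the membrane anchors Rgs7bp and Rgs9bp, and Gpr158, which binds RGS7. In A/J 0 of these 6 were higher and 4 were lower, namely Gnb5 (-0.29), Rgs9bp (-0.33), Gpr158 (-0.21) and Rgs7bp (-0.17), on the log2 scale, where 15.1% and 12.6% of all genes tested were. Rods also use Gnb5 and Rgs9bp, and of the 8 rod markers 1 was higher and 5 were lower in A/J, and their part in the result was not tested. CAST/EiJ had 3 higher, among them Rgs9bp (0.32), and 1 lower, Gng13 (-0.41, q = 8.75e-05), where 20.3% and 29.1% of all genes tested were. Of the 8 rod markers 3 were higher and 0 lower in CAST/EiJ, and their part there was not tested either. Gnb5 had its highest mean in WSB/EiJ, 154 ± 13.3 cpm (SD, n = 3), and its lowest in A/J, 102 ± 2.65 cpm. Gng13 ran from 11.8 ± 1.55 cpm in CAST/EiJ to 19.9 ± 0.965 cpm in NOD/ShiLtJ. The remaining counts of higher and lower genes were 1 and 1 in 129S1/Svlmj, 0 and 0 in C57BL/6J, 1 and 0 in NOD/ShiLtJ, 0 and 1 in NZO/HlLtJ, 2 and 1 in PWK/PhJ and 2 and 0 in WSB/EiJ. The cleft group comprised Elfn1, a photoreceptor adhesion protein that binds mGluR6, Egflam (pikachurin), Dag1 (dystroglycan), Lrit1 and Lrit2. In 129S1/Svlmj 3 of the 5 were lower, Dag1 (-0.32), Egflam (-0.19) and Lrit1 (-0.18), and 0 were higher, where 13.0% and 14.5% of all genes tested were. Rod markers in 129S1/Svlmj had 0 of 8 higher and 3 lower, and their part in this result was not tested. The cleft genes called higher and lower numbered 1 and 0 in A/J, 0 and 0 in C57BL/6J, 1 and 2 in CAST/EiJ, 0 and 0 in NOD/ShiLtJ, 1 and 1 in NZO/HlLtJ, 1 and 1 in WSB/EiJ, and 2 and 0 in PWK/PhJ. For the counts of both groups and of the rod markers, the shares of all genes tested are those given above for each strain. Elfn1 was not called in any strain; its strain means ran from 14.1 to 20.4 cpm. The median log2 range was 0.52 for the G protein group and 0.51 for the cleft group, beside 0.43 over all genes tested. With the pigment cell covariate, the number of calls among the partners was 13 in place of 30, and with 1 library left out it ranged from 24 to 33.

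Pcp2, a GoLoco protein that binds Go in ON bipolar and Purkinje cells (chr8:3623371-3625546, minus strand), was high in NOD/ShiLtJ and A/J. Its values were 17.4, 15.9 and 15.3 cpm in NZO/HlLtJ, 18.4, 16.8 and 14.97 cpm in PWK/PhJ, 18.8, 14.98 and 16.5 cpm in WSB/EiJ and 20.4, 16.9 and 19.9 cpm in CAST/EiJ. The higher strains had 22.5, 25.5 and 24.7 cpm in 129S1/Svlmj, 24.7, 24.5 and 26.5 cpm in C57BL/6J, 31.3, 31.8 and 31.9 cpm in A/J and 36.4, 35.6 and 36.8 cpm in NOD/ShiLtJ. The 4 lower strains, which include the 3 wild-derived ones, overlapped each other and lay below the other 4; A/J and NOD/ShiLtJ each stood clear of all strains below them. The mean was 36.3 ± 0.586 cpm (SD, n = 3) in NOD/ShiLtJ, 2.24 times that of NZO/HlLtJ, 16.2 ± 1.12 cpm. Log2 differences were 0.78 ± 0.06 (SE), q = 2.00e-10 in NOD/ShiLtJ, 0.56 ± 0.06 (SE), q = 4.63e-08 in A/J and -0.50 ± 0.06 (SE), q = 2.60e-07 in NZO/HlLtJ. PWK/PhJ (-0.46, q = 2.40e-07) and WSB/EiJ (-0.45, q = 7.24e-07) were also lower. A lower call in CAST/EiJ (-0.25, q = 3.06e-04) was -0.17 (q = 0.0110) without replicate 2 of CAST/EiJ and -0.10 (q = 0.158) with the pigment cell covariate, and a higher one in C57BL/6J (0.20, q = 0.00714) was 0.21 (q = 0.0192), 0.22 (q = 0.0141) and 0.16 (q = 0.0608) without replicates 1, 2 and 3 of C57BL/6J and 0.08 (q = 0.172) without CAST/EiJ and PWK/PhJ. The call in C57BL/6J was also lost with Benjamini-Hochberg adjusted p (0.0146) and with no filter (q = 0.0111). Pet100 overlaps Pcp2 on the opposite strand with 2.63 cpm, 11.3% of the Pcp2 value, and whether counting used strand is not given in the sources used here. Srek1 (r = 0.91) and Idh1 (r = 0.91) were most like it.

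Prkca, which encodes protein kinase C alpha and is the usual marker of rod bipolar cells (chr11:107933387-108343929, minus strand), had the largest strain differences among the 10. The libraries had 59.7, 56.3 and 56.0 cpm in A/J and 74.2, 75.8 and 78.6 cpm in NOD/ShiLtJ, then 116, 127 and 120 cpm in 129S1/Svlmj and 137, 136 and 125 cpm in C57BL/6J. Higher values were 147, 143 and 140 cpm in CAST/EiJ, 141, 149 and 146 cpm in NZO/HlLtJ, 166, 179 and 174 cpm in PWK/PhJ and 194, 182 and 190 cpm in WSB/EiJ. A/J lay below NOD/ShiLtJ and both below the other 6 strains, with the lowest library of those 6 at 1.47 times the highest NOD/ShiLtJ library; 129S1/Svlmj overlapped C57BL/6J, and CAST/EiJ overlapped NZO/HlLtJ. The WSB/EiJ mean of 189 ± 6.46 cpm (SD, n = 3) was 3.29 times the A/J mean of 57.3 ± 2.08 cpm. A share of 3.80% of the genes tested had as large a range over the strains. Log2 differences were -1.23 ± 0.03 (SE), q = 1.89e-18 in A/J and -0.76 ± 0.03 (SE), q = 1.57e-14 in NOD/ShiLtJ, and higher in WSB/EiJ at 0.72 ± 0.03 (SE), q = 2.74e-14 and in PWK/PhJ at 0.58 ± 0.03 (SE), q = 5.62e-13. NZO/HlLtJ (0.29, q = 2.43e-07) and CAST/EiJ (0.27, q = 1.49e-07) were also higher, as was C57BL/6J (0.14, q = 0.00163), a call lost at 0.12 (q = 0.0227) and 0.12 (q = 0.0155) without replicates 1 and 2 of C57BL/6J and at 0.10 (q = 0.0189) with libraries scaled to equal sums. The spread between libraries of a strain was small, with a median coefficient of variation of 3.52%. Of the neighbours, also named after their values were seen, Cep112 on the side of the promoter had means of 4.89 cpm in NZO/HlLtJ, 4.96 cpm in 129S1/Svlmj, 4.96 cpm in A/J and 5.26 cpm in NOD/ShiLtJ, up to 12.2 cpm in WSB/EiJ, with r = 0.69 to Prkca over the 8 strain means. Cacng5 on the other side ranged from 7.82 to 11.1 cpm (r = 0.12). The lncRNA Gm11961 (r = 0.92), from 0.948 cpm in A/J to 5.04 cpm in WSB/EiJ, and Eogt (r = 0.91) were most like Prkca.

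Other markers of ON and rod bipolar cells were read beside Prkca. The 9 ON and rod bipolar markers, of which Cabp5 was the most abundant and none was near 0, summed to 189, 179 and 182 in A/J, 208, 205 and 205 in NOD/ShiLtJ, 179, 189 and 182 in 129S1/Svlmj and 149, 157 and 158 in C57BL/6J, in cpm per library. The sums were 185, 174 and 189 in CAST/EiJ, 185, 183 and 181 in NZO/HlLtJ, 205, 206 and 196 in PWK/PhJ and 221, 196 and 212 in WSB/EiJ. The order of the strains depends on Cabp5: with it the sums were lowest in C57BL/6J, and without it lowest in CAST/EiJ, with 119, 115 and 121 in CAST/EiJ, 124, 134 and 132 in C57BL/6J, 135, 133 and 133 in PWK/PhJ, 140, 136 and 140 in A/J and higher means in the other 4 strains. Over the 8 strain means, r with Prkca was 0.59 for Tpbg, 0.05 for Cabp5, -0.22 for Isl1, -0.27 for Car8 and -0.45 for Sebox. Among these markers 0 were higher and 2 lower in A/J (Tpbg at -0.40 and Ccdc136 at -0.24), 3 and 1 in NOD/ShiLtJ, 3 and 4 in PWK/PhJ, 1 and 5 in CAST/EiJ and 5 and 0 in WSB/EiJ. The counts were 0 and 3 in C57BL/6J, 3 and 2 in NZO/HlLtJ and 0 and 0 in 129S1/Svlmj. For these counts and those of the other marker lists, the shares of all genes tested are those given above for each strain. They were 26.6% higher and 22.8% lower in PWK/PhJ, and 20.3% and 29.1% in CAST/EiJ. Lower in CAST/EiJ were, among others, Bhlhe23 (-0.66), Tpbg (-0.63), Car8 (-0.47) and Isl1 (-0.35), while Cabp5, a calcium-binding protein of rod bipolar cells, was higher there (0.68, q = 6.32e-11) and in PWK/PhJ (0.77, q = 7.86e-12). Of the 5 OFF bipolar markers 2 were higher and 3 lower in CAST/EiJ, and of the 4 markers of all bipolar cells 1 was higher and 2 were lower. Ganglion cell markers, led by Nefl and with none at or below 3 reads, were also low there, with 0 of 7 higher and 6 lower; they summed to 150, 149 and 152 in CAST/EiJ, beside strain means of 185 cpm in A/J to 247 cpm in C57BL/6J elsewhere, and their part in the results was not tested. The median log2 range was 0.93 for the ON and rod bipolar markers, 0.48 for OFF bipolar, 0.57 for all bipolar, 0.50 for rod, 0.29 for amacrine, 0.49 for ganglion and 0.39 for Muller glia markers, and it was larger for markers of other tissues, at 1.32 for blood, 1.68 for pigment cells and 2.87 for lens.

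Lens markers were high in single libraries. Summed lens markers, with Cryaa the most abundant of 6 and none at or below 3 reads in all libraries, reached 39.8, 1612 and 24.1 in 129S1/Svlmj, 14.6, 1812 and 16.4 in NOD/ShiLtJ and 4.86, 212 and 9.81 in C57BL/6J, in cpm. They were 67.3, 45.6 and 84.5 in PWK/PhJ, 45.9, 10.5 and 10.5 in WSB/EiJ, 16.2, 34.2 and 22.9 in NZO/HlLtJ, 19.3, 5.00 and 19.9 in CAST/EiJ and 13.5, 9.12 and 7.90 in A/J. The high values belonged to replicate 2 of 129S1/Svlmj, NOD/ShiLtJ and C57BL/6J, and no lens marker was called in any strain against the others. All 6 nonetheless passed the F-test between the strains at a q-value under 0.01. F was lowest for Mip (1.07, q = 0.00891) and highest for Bfsp1 (1.54, q = 0.00465). That test therefore also called genes whose summed level was highest in single libraries. With the summed lens level as a covariate, 42 calls were again made among the members and none changed. The 4 calls of 129S1/Svlmj fell to 0 with the pigment cell covariate, and the 42 calls over all strains to 35; the part of pigment cells in those calls was not otherwise tested. Blood markers, led by Hbb-bs, had 1 of 2 tested genes higher in A/J and in NOD/ShiLtJ and 1 lower in 129S1/Svlmj and in C57BL/6J, and summed to 25.2 ± 3.43 cpm (SD, n = 3) in NOD/ShiLtJ and 11.2 ± 0.835 cpm in CAST/EiJ; their part in the results was not tested.

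**Figure D3:**
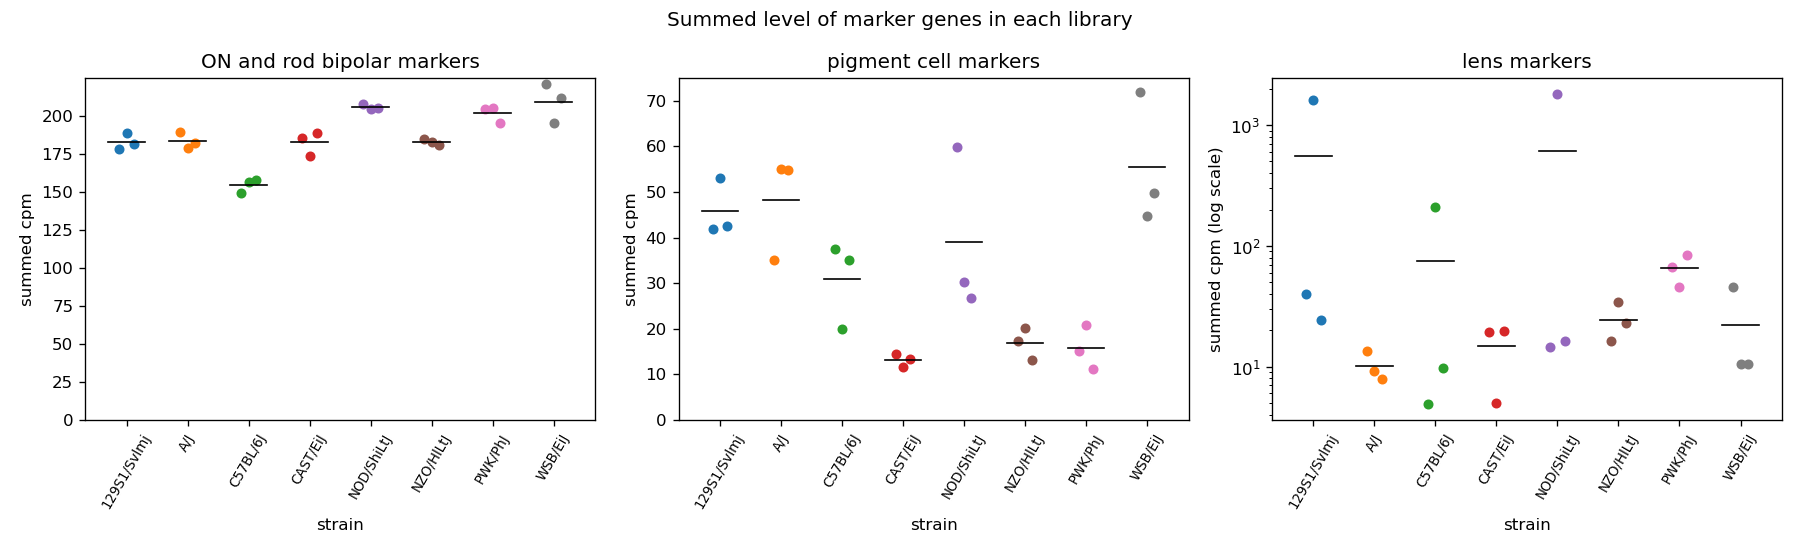
Summed cpm of the 9 ON and rod bipolar, 10 pigment cell and 6 lens markers (vertical axes, the last on a log scale) in each library (points) of the 8 strains (horizontal axis), with lines at the strain means. Pigment cell markers were low in CAST/EiJ, NZO/HlLtJ and PWK/PhJ (means 13.2, 16.8 and 15.7 cpm), and single libraries of 129S1/Svlmj and NOD/ShiLtJ held 1612 and 1812 cpm of lens markers.

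The members did not vary as 1 unit. Over the 8 strain means, Grm6 went with Gpr179 (r = 0.86) and Trpm1 (r = 0.83), and Nyx went with Gpr179 (r = 0.80), a value to which the low CAST/EiJ point contributes in both genes; r between Trpm1 and Gpr179 was 0.60. Prkca and Pcp2 ran in opposite directions (r = -0.89), with A/J and NOD/ShiLtJ lowest for Prkca and highest for Pcp2. Within strains the r of Prkca and Pcp2 was 0.05 over the 24 libraries. Grm6, Gpr179 and Gnao1 also varied together between libraries of the same strain, with within-strain r of 0.86 for Grm6 and Gpr179, 0.85 for Grm6 and Gnao1 and 0.79 for Gpr179 and Gnao1, whereas Grm6 and Trpm1 had 0.29. Lrit3 and Rgs11 also varied with them, with 0.64 and 0.67 to Grm6 and 0.67 and 0.68 to Gpr179, as did the marker Vstm2b (0.71 to Grm6). Other ON bipolar genes ran the opposite way within strains, with -0.65 for Gnao1 and Car8, -0.61 for Gpr179 and Gng13, -0.55 for Gpr179 and Isl1 and -0.41 for Grm6 and Sebox. These correlations describe 8 strains or 24 libraries, which share 1 normalization, and carry no test.

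The study measured refraction, myopia and contrast sensitivity in other mice of the same strains, and the level of each gene was regressed on the strain mean of each phenotype, with every library as a replicate. Baseline refractive error was associated with 2 of the 10 members, where 15.5% of all genes tested were. Pcp2 was lower in strains with more positive refraction (t = -4.44, q = 0.00133) and Prkca higher (t = 3.30, q = 0.00903), and among the partners Gng13 was called (t = -3.36, q = 0.00808). The Prkca call was lost in 19 of the 24 fits without 1 library, for instance at t = 3.06 (q = 0.0162) without replicate 3 of PWK/PhJ, and the Pcp2 call in none. The association of Prkca was also lost without C57BL/6J (q = 0.0122), CAST/EiJ (0.0235), NOD/ShiLtJ (0.0307), NZO/HlLtJ (0.0146), PWK/PhJ (0.0395) or WSB/EiJ (0.0170), while the Pcp2 call was kept whichever strain was left out. Without 129S1/Svlmj both were larger, with t = 5.84 (q = 9.44e-05) for Prkca and t = -7.49 (q = 8.39e-06) for Pcp2. Form-deprivation myopia was associated with 1 member, Nyx (t = -4.26, q = 0.00272), against 10.9% of the genes tested, and with the partner Rgs7bp (t = 3.67, q = 0.00677), for which, as for Gng13, values with 1 library left out were not recorded. Nyx was lower where myopia was larger; without CAST/EiJ the value was t = -0.70 (q = 0.427), and with single CAST/EiJ libraries left out q was 0.0154, 0.0166 and 0.0124 (replicates 1, 2 and 3). Contrast sensitivity, fitted on the 21 libraries of 7 strains, was associated with 3 members, against 5.12% of the genes tested. The study measured A/J as well, but that value was not used here, and these associations could differ with it. Grm6 (t = -6.18, q = 4.20e-04), Gpr179 (t = -5.05, q = 0.00196) and Trpm1 (t = -4.75, q = 0.00288) were each lower in strains with higher contrast sensitivity, and none of the 11 partners was called. Without CAST/EiJ, Grm6 was still called (-4.84, q = 0.00895), and Trpm1 (-3.39, q = 0.0521) and Gpr179 (-2.50, q = 0.129) were not, with t before each q; without WSB/EiJ, Trpm1 (-3.34, q = 0.0240) and Gpr179 (-3.53, q = 0.0188) were not called either. Nyx lay just outside the limit (t = -3.74, q = 0.0116) and was called after median-ratio scaling (q = 0.00743), quantile normalization (q = 0.00785) and scaling to equal sums (q = 0.00721), and without 129S1/Svlmj, NZO/HlLtJ or WSB/EiJ, but without CAST/EiJ it had t = 0.30 (q = 0.592). Leaving out single CAST/EiJ libraries ended the Gpr179 call at t = -4.35 (q = 0.0111) without replicate 1 and t = -4.26 (q = 0.0125) without replicate 3, and the Trpm1 call at t = -4.30 (q = 0.0103) without replicate 2 and t = -4.27 (q = 0.0124) without replicate 3. Because libraries of 1 strain enter with the same phenotype value, these q-values treat 24 or 21 libraries as independent where 8 or 7 phenotype values exist. With strain means as the units, limma called 0 of the genes tested for any phenotype; at an unadjusted p under 0.05 there were 1876, 1446 and 906 genes for refraction, myopia and contrast sensitivity, and 1, 1 and 3 members, which were Pcp2, Nyx, and Grm6, Trpm1 and Gpr179.

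RefSeq promoter windows of 300 bases (GRCm38.p6) were found for 9 of the 10 members, in 13 windows. The windows were searched on both strands for TAATCC, the letters bound by the photoreceptor and bipolar factors CRX and OTX2, and for TAATTA, a general homeodomain motif that reads the same on both strands. TAATCC was in 1 of the 13 windows, that at the 5′ end of Trpm1, and TAATTA in 1, of Pcp2; over all 32851 windows the shares were 7.06% and 5.29%. A match is a description of letters and not a binding site, and these are reference sequences, which do not carry the alleles of the other strains. The windows of Grm6 (chr11:50850435-50850734, plus strand), Gpr179 (chr11:97352307-97352606, minus strand) and Trpm1 (chr7:64153585-64153884, plus strand) are given from 5′ to 3′ because these were the 3 members called for contrast sensitivity; capitals mark the motif.
Grm6 promoter: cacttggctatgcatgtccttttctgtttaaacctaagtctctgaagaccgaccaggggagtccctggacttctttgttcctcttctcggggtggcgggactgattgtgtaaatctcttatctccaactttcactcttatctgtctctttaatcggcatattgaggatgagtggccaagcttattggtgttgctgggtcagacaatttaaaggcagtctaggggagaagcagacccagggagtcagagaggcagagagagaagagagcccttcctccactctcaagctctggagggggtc
Gpr179 promoter: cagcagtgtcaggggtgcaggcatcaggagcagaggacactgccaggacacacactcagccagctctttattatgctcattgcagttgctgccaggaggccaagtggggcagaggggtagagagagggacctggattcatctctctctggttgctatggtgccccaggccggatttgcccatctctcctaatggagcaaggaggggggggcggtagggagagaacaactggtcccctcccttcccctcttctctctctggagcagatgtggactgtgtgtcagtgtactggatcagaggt
Trpm1 promoter: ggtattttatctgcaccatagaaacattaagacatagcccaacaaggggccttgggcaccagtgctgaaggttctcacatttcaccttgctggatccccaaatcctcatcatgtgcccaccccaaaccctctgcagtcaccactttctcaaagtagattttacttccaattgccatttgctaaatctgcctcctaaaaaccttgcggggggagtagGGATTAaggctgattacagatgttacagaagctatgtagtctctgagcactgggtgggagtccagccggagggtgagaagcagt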

How the data were processed

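Libraries were prepared and sequenced by the authors, whose processing notes name STAR, Partek and the mouse assembly GRCm38 (mm10); the deposited table gives cpm for each gene and library. The paper names RefSeq, whereas the table carries Ensembl-type identifiers, and the strand used in counting is not given in the sources used here. Values under 0.2 cpm fell on whole read counts in 87.6 to 90.1% of cases (within 0.02 of a read), which gave the depths, but no count model was fitted. Genes averaging 0.5 cpm or more over the libraries, 16,400 in number, were fitted by strain on the log2(cpm + 1) scale with limma 3.58.1 in R 4.3.3, with eBayes and a mean-variance trend. Differences between the 8 strains, and of each strain from the mean of the other 7, were called at a Storey q-value under 0.01, computed over all genes tested with a spline estimate written for the purpose. The phenotypes came from the supplement of the study and were used only as covariates. The code was first tested on simulated data.

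The named genes were all 10 members, the pathway partners and cell markers in fixed lists, and for each member the 2 tested genes with the highest Pearson r over the 24 libraries. Members and lists were chosen with earlier results of these data known. The alternatives were a pseudocount of 0.1, no filter, a filter at 5 cpm, scaling by median ratios, by quantiles and to equal sums, Benjamini-Hochberg adjustment, a q-value limit of 0.05, limma without the trend, the fit without CAST/EiJ and PWK/PhJ, strain means as units, and each strain and each library left out. Covariates for the summed lens and pigment cell markers were added after the data had been seen. Exon lengths were from GENCODE vM21, and promoter sequences from RefSeq (GRCm38.p6). Gene positions were those of the deposited table, whose ends for the members lie 1 base past those of GENCODE vM21.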

Additional observations from a re-analysis of the deposited data

How the results depend on the processing

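All 10 members differed between the strains in each of the 11 alternatives run for that result, and no called value changed sign, though values that were not called did. Of the single-gene values over the alternatives, 3892 stayed as they were, called or not called, 79 became called and 109 ceased to be. With pigment cell markers as a covariate, calls among the partners went from 30 to 13 and those of 129S1/Svlmj from 4 to 0, and the cause was not tested. Members called in A/J went from 6 to 3 without CAST/EiJ and PWK/PhJ. Members associated with baseline refractive error, 2 in the fit used, were 1 with no filter on low values, 1 with quantile normalization, 1 with Benjamini-Hochberg adjusted p, 4 at a q-value limit of 0.05, 0 with strain means as units, 4 with 129S1/Svlmj left out, 3 with WSB/EiJ left out and 1 each with C57BL/6J, CAST/EiJ or NOD/ShiLtJ left out; with NZO/HlLtJ or PWK/PhJ left out they were again 2, but Pcp2 and Nyx. Those associated with form-deprivation myopia, 1 in the fit used, were 2 at a limit of 0.05, 0 with strain means as units, 0 with CAST/EiJ left out, 4 with NZO/HlLtJ left out and 3 with WSB/EiJ left out. Those associated with contrast sensitivity, 3 in the fit used, were 0 with strain means as units, 1 with CAST/EiJ left out, 2 with WSB/EiJ left out (Grm6 and Nyx), and 4, with Nyx added, with median-ratio, quantile or equal-sum scaling, at a limit of 0.05 and with 129S1/Svlmj or NZO/HlLtJ left out. Leaving out each library in turn gave 10 to 10 members differing between the strains, 38 to 44 calls over members and strains, 24 to 33 among the partners, and by strain 129S1/Svlmj 1 to 4, A/J 5 to 6, C57BL/6J 1 to 5, CAST/EiJ 5 to 7, NOD/ShiLtJ 4 to 7, NZO/HlLtJ 4 to 4, PWK/PhJ 6 to 7 and WSB/EiJ 5 to 6; members associated were 1 to 3 for refraction, 0 to 2 for myopia and 1 to 4 for contrast sensitivity. The split of 24 higher and 18 lower calls was 25 and 21 with median-ratio scaling, 24 and 22 with quantile normalization and 25 and 22 with equal sums. The paper describes pooling of the libraries in randomized complete blocks before sequencing, but the blocks are not given in the sources used here. No paired or blocked analysis was made, because the replicate numbers of the strains follow the order of deposit only. With 3 mice per strain and no sex given in the sources used here, differences between strains could not be separated from differences between the groups of mice.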
